A study of Mus musculus with 14 samples.

Results

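The comparison of oocytes that overexpressed Rnaseh1 with oocytes that overexpressed mCherry was taken from the rescue set of this mouse oocyte study, and covers 4 of the 14 libraries. Its genes were the 12859 of 35341 symbols with at least 1 TPM, a transcript's share of all transcripts scaled for its length, in at least 2 of the 6 rescue libraries. The study sequenced polyadenylated RNA from oocytes with mCherry, a red fluorescent protein that served as the control, with Rnaseh1, or with Rnaseh1 and Supt6 together, the third group of the rescue set. The other 8 libraries came from oocytes whose nucleolus was not surrounded (NSN) or was surrounded (SN) by condensed chromatin, and both stages received mCherry or Rnaseh1. The groups had 2 libraries each. The labels of the rescue set give the cell type, the oocyte, and the overexpressed genes. They name no oocyte stage, mouse strain or age, and no form or dose of the overexpressed genes. Nor do they tell if a group's 2 libraries are separate animals, pools or preparations, and p-values therefore measure only the spread between libraries.

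RNase H1 is the enzyme that cuts the RNA strand of RNA:DNA hybrids, including R-loops, the structures in which a new transcript stays paired with its template DNA. It acts in the nucleus and in mitochondria, where it is needed for the replication of mitochondrial DNA. A growing mouse oocyte transcribes and stores the messages it will use during meiosis and early development, and transcription falls silent around the change from the NSN to the SN configuration. SPT6, the product of Supt6, handles histones in front of and behind RNA polymerase II as it elongates.

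The cells carried the messages of oocytes. All 15 oocyte markers were among the tested genes, and their summed level was 30676 and 31316 TPM in the mCherry libraries and 21900.4 and 22256 TPM in the Rnaseh1 libraries. Dppa3 was the 1 marker that rose, and 12 fell (80%), where 46.2% of all tested genes fell. The median log2 fold change of the markers was -1.14, against -0.52 for all tested genes. Without Dppa3 the sum was 27001 and 27768 TPM with mCherry and 8830.3 and 8698 TPM with Rnaseh1. Of 18 markers of granulosa and cumulus cells, 7 were listed at 0 in all 4 libraries, 3 were tested and 0 passed the test. Their sum was 55.7 and 53.9 TPM with mCherry and 54.3 and 45.9 TPM with Rnaseh1, most of it Cyp19a1, the aromatase gene, at up to 44.9 TPM. Of 11 blood and macrophage markers 6 were listed at 0, and the sum was 2.89 and 5.80 TPM with mCherry and 1.01 and 0.85 TPM with Rnaseh1. Of 11 genes of zygotic genome activation 5 were tested, and their sum was 258 and 256 TPM against 293 and 328 TPM. In bulk libraries, fewer cells of a type and less RNA per cell cannot be told apart.

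Both Rnaseh1 libraries stood apart from the other 4 of the rescue set. Across genes, on log2(TPM + 1), they correlated with each other at r = 0.974, with the mCherry libraries at 0.813 to 0.821, and with the Rnaseh1 plus Supt6 libraries at 0.870 to 0.872. The Rnaseh1 plus Supt6 libraries correlated with the mCherry libraries at 0.969 to 0.971. Genes at 1 TPM or more numbered 11035 and 10892 with Rnaseh1, 12213 and 12230 with mCherry, and 11958 and 11984 with Rnaseh1 plus Supt6. Since TPM carries no depth, the reads behind a value are unknown.

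Rnaseh1 (chromosome 12, 28649602 to 28659589, GRCm38) stood at 125 and 114 TPM in the mCherry libraries, 1243 and 625 TPM in the Rnaseh1 libraries and 2270.4 and 2017 TPM in the Rnaseh1 plus Supt6 libraries. Its level thus differed by group without overlap, and the Rnaseh1 libraries differed from each other more than those of the other groups. Against mCherry it rose by 2.87 on the log2(TPM + 1) scale (SE 0.28, limma adjusted p = 8.9e-05). All fold changes below are on that scale, which understates the change of genes with low TPM. Supt6 stood at 3.28 and 3.14 TPM with mCherry, 3.01 and 2.55 TPM with Rnaseh1 and 28.2 and 21 TPM with both. It did not pass between Rnaseh1 and mCherry (log2 fold change -0.16, adjusted p = 0.57), and after correction for a trend with GC content, described below, it rose by 0.93.

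With Rnaseh1, 2608 genes rose and 5945 fell, which is 20.3% and 46.2% of the genes tested, and 4306 did not pass (limma, Benjamini-Hochberg adjusted p under 0.05 over all 12859). The median log2 fold change of all genes was -0.52. That of the genes that rose was 1.17 and that of the genes that fell was -1.52. Of the genes that rose, 1614 changed by at least 1, 404 by at least 2 and 60 by at least 3 on the log2 scale. Of the genes that fell, 4561 changed by at least 1, 1910 by at least 2 and 646 by at least 3. In each of the called genes, both Rnaseh1 libraries lay on the same side of both mCherry libraries. With 2 libraries per group the test favours such genes, so this adds no support to the calls. The libraries of Supt6, Elobl and Med28 did not overlap either, and these genes did not pass. The genes that rose held 24.7% and 23.8% of all TPM in the mCherry libraries and 66.7% and 66.2% in the Rnaseh1 libraries. The genes that fell held 62.8% and 63.6% with mCherry and 20.9% and 21.2% with Rnaseh1.

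**Figure D1:**
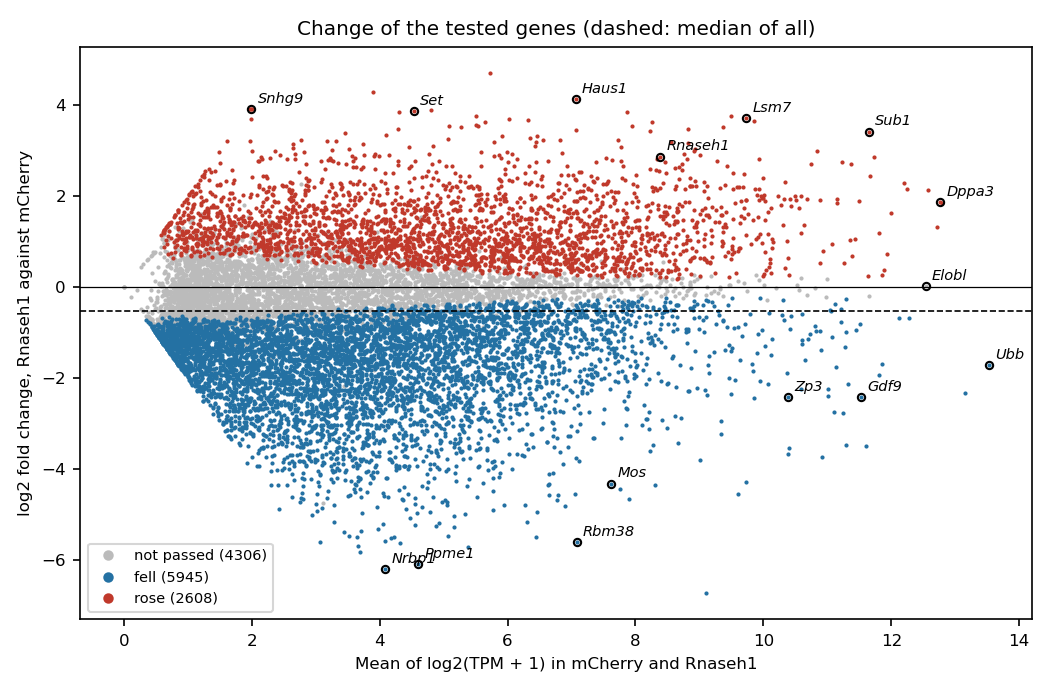
Change of each tested gene with Rnaseh1 against mCherry (vertical axis, log2 fold change) against its level (horizontal axis, mean of log2(TPM + 1) over both groups), 1 point per gene, coloured by the call of the test. The points lie more below 0 than above it, the dashed line marks the median of all genes at -0.52, and Ppme1 fell by 6.08 on the log2 scale.

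TPM adds up to the same total in every library, so the split into rising and falling genes depends on the scale. Of all calls, rises were 30.5% with the deposited TPM, 48.7% after the median of abundant genes was set equal in all libraries, 51.6% after quantile normalization, and 48.9% after the trend with GC content was removed. Median centring gave 3973 genes that rose and 4186 that fell (30.9% and 32.6% of those tested), and correction for GC content gave 3474 and 3628 of 12582 (27.6% and 28.8%). Of the 8553 calls, 6794 kept their direction and their call after centring and 5615 after correction for GC content, and 5 and 246 were called in the opposite direction.

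The genes with the largest rises had varied roles. Haus1, of the augmin complex, which makes spindle microtubules branch, stood at 29.9 and 32.1 TPM with mCherry and 554 and 565 TPM with Rnaseh1. The rise was 4.13 (SE 0.12, adjusted p = 6.9e-07), and the Rnaseh1 plus Supt6 libraries, at 46.9 and 56.5 TPM, lay near the mCherry level. Lsm7 (chromosome 10), a subunit of the LSm ring that binds U6 RNA and decaying messages, stood at 240.1 and 226 TPM with mCherry, 3271 and 2909.8 TPM with Rnaseh1 and 549.6 and 463 TPM with Rnaseh1 plus Supt6, a rise of 3.72 (SE 0.10) with Rnaseh1 alone. Slirp, which protects mitochondrial messages from decay, stood at 82.7 and 59.6 TPM with mCherry and 867 and 806 TPM with Rnaseh1. In Lsm7 and Slirp the Rnaseh1 libraries were close to each other and far above the 4 other libraries.

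The others with the largest rises were Set (3.88), whose protein binds histones and inhibits the phosphatase PP2A, the mitochondrial gene Nipsnap2 (3.85), Arglu1 (3.85), Vapa, which tethers the endoplasmic reticulum to other membranes (3.76), Pate2 (3.69), Aig1 (3.65), Zbtb8os (3.56) and Mrpl42 of the mitochondrial ribosome (3.52). Ly96, the partner of the receptor TLR4, rose by 3.64, the chemokine gene Ccl2 by 3.53 and Cd226, an adhesion receptor of lymphocytes, by 3.49. Cd226 stood at 2.91 and 7.08 TPM with mCherry, 2 libraries that differed from each other, and at 65.5 and 59.1 TPM with Rnaseh1. Snhg9, a noncoding host gene of a small nucleolar RNA, was listed at 0 in both mCherry libraries and both Rnaseh1 plus Supt6 libraries and at 10 and 19.7 TPM with Rnaseh1.

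In absolute level, the largest gains went to genes that oocytes express strongly. Sub1, a transcriptional coactivator that binds single-stranded DNA, stood at 1067 and 894 TPM with mCherry and 10690.1 and 10334 TPM with Rnaseh1 (3.43). Cks2, a partner of cyclin-dependent kinases, went from 1227 and 1286 TPM to 9410.2 and 8958 TPM (2.87). Pttg1, the securin that holds back chromosome separation, went from 2271 and 2301 TPM to 10158 and 10498 TPM (2.17). Dppa3, which protects maternal DNA methylation, went from 3676 and 3548 TPM to 13070.1 and 13559 TPM (1.88). In each of these genes the Rnaseh1 plus Supt6 libraries lay between the other groups, at 2088 and 1905 TPM for Sub1, 1851 and 1950.4 for Cks2, 4448 and 4551 for Pttg1 and 6169 and 6249 for Dppa3. Omt2a, Omt2b, Ftdc1 and Fbxw24, all abundant in oocytes, rose by 2.30, 1.86, 2.15 and 1.33. Omt2a and Omt2b are close copies of each other, so reads may have been divided between them.

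The deepest falls took genes from a high TPM to a low one. Ppme1 (chromosome 7), the methylesterase of PP2A, stood at 195 and 203 TPM with mCherry, 1.8 and 2.13 TPM with Rnaseh1 and 109 and 114 TPM with Rnaseh1 plus Supt6. It fell by 6.08 (SE 0.12, adjusted p = 4.7e-07), with the 2 Rnaseh1 libraries far below all others. Rbm38 (chromosome 2), an RNA-binding protein that stabilizes messages, stood at 923 and 963 TPM with mCherry, 19.4 and 17.5 TPM with Rnaseh1 and 427 and 465 TPM with Rnaseh1 plus Supt6 (-5.60, SE 0.09). Eif5a, a factor that keeps ribosomes moving, went from 564 and 597 TPM to 12.2 and 11.6 TPM and was at 444 and 469.9 TPM with Supt6 added. Eif5a and Set have processed pseudogenes that can share reads. On the log2 scale the Rnaseh1 plus Supt6 libraries of Ppme1, Rbm38 and Eif5a were much nearer to the mCherry libraries than to the Rnaseh1 libraries, though in TPM those of Rbm38 were slightly nearer to the Rnaseh1 libraries.

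The other large falls were in Nrbp1 (-6.19), the SUMO ligase gene Pias4 (-5.81), the F-box gene Fbxl6 (-5.71), Mfsd10 (-5.68), the glycine transporter gene Slc6a9 (-5.62), Cdipt, which makes phosphatidylinositol (-5.57), Cnot3 of the CCR4-NOT deadenylase (-5.52), the cell survival gene Bcl2l1 (-5.50), Pex14, which imports peroxisomal proteins (-5.48), Fpgs of folate metabolism (-5.47) and Acot8 (-5.45). Mfsd10 was the least even of these, at 159.8 and 39.8 TPM in the 2 mCherry libraries against 0.59 and 0.57 TPM with Rnaseh1. Abundant oocyte genes lost most in absolute level: Oas1d (-4.27), Oas1e (-3.53), Tcl1 (-2.39), the plasminogen activator gene Plat (-2.23) and the oocyte linker histone gene H1f8 (-1.67) fell. Gdf9, the growth factor that oocytes secrete to granulosa cells, stood at 6572 and 7032 TPM with mCherry, 1385 and 1169.6 TPM with Rnaseh1 (-2.42) and 7142 and 7397 TPM with Rnaseh1 plus Supt6. The 2 Oas1 genes belong to a family of close copies. Ubb, which encodes ubiquitin and is the most abundant of the genes named, stood at 23939.5 and 18676 TPM with mCherry and 6352 and 6665 TPM with Rnaseh1 (-1.70), and it no longer passed with the GC trend taken out (-0.39, limma adjusted p = 0.052).

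**Figure D2:**
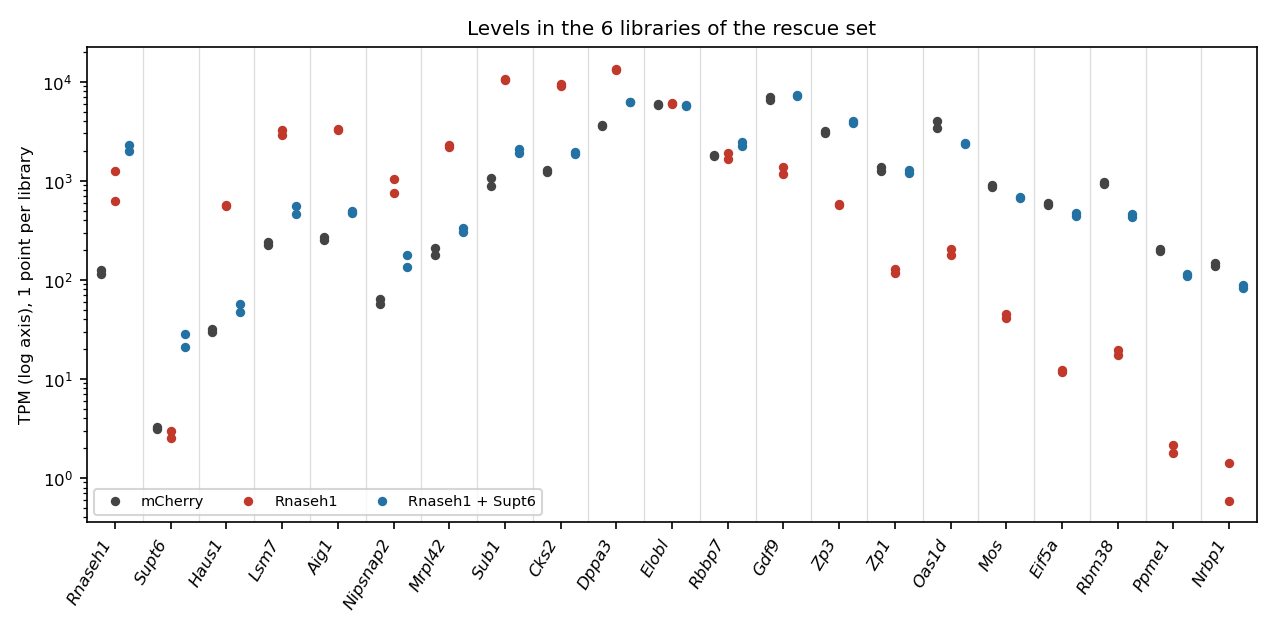
Levels of 21 genes in the 6 libraries of the rescue set on a log axis (TPM), 1 point per library, coloured by group. Haus1 and Lsm7 stood at 554 and 565 TPM and 3271 and 2909.8 TPM in the red Rnaseh1 libraries, above the 4 others, Ppme1 and Rbm38 stood far below them, and for most genes the blue Rnaseh1 plus Supt6 points lie near the grey mCherry points.

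Some abundant genes lay near 0. Elobl stood at 5918 and 5852 TPM with mCherry and 6055 and 5979.9 TPM with Rnaseh1 (0.03). The ubiquitin-conjugating enzyme gene Ube2d3 (-0.05), Sap18 (-0.01), the histone-binding gene Rbbp7 (-0.01), the Mediator gene Med28 (0.05) and the superoxide dismutase gene Sod1 (0.06) were the next most abundant genes within 0.1 of 0 on the log2 scale, and none of the 6 passed. All 6 rose once libraries were centred on their median, so these values hold only on the TPM scale.

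Most genes of mitochondrial respiration rose. Of 37 tested complex I subunits 30 rose and 5 fell, against 20.3% and 46.2% of all genes, with a median of 1.07. Ndufa12, an accessory subunit, stood at 93.8 and 85.3 TPM with mCherry and 1010.3 and 953 TPM with Rnaseh1 (3.44). Ndufa1 went from 701 and 635 TPM to 4737 and 4005 TPM, and Ndufa5 and Ndufv3 rose by 2.76 and 2.07. Of 42 subunits of complexes II to V 25 rose and 12 fell (median 0.84), with Cox7c of cytochrome c oxidase from 382 and 348 TPM to 2865 and 2363 TPM (2.83), Cox6c at 1.90, and Uqcrb and Uqcrh of the bc1 complex at 2.65 and 1.91. The summed level of complex I was 8302 and 7709 TPM with mCherry, 22633 and 19894 TPM with Rnaseh1, and 11312 and 10688 TPM with Rnaseh1 plus Supt6. After correction for GC content, when 27.6% of all genes rose and 28.8% fell, 32 rose and 3 fell in complex I. Of the 39 genes of complexes II to V with a GC value 30 rose and 7 fell.

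Other mitochondrial genes did not move as one. Of 74 proteins of the mitochondrial ribosome 26 rose and 33 fell (35.1% and 44.6%, median -0.06), against 20.3% and 46.2% of all genes. After correction for GC content 41 rose and 15 fell, when 27.6% of all genes rose and 28.8% fell. Mrps33 stood at 662 and 633 TPM with mCherry and 5193 and 5171 TPM with Rnaseh1, and Mrps14 rose by 2.40, while Mrpl4 fell from 124 and 128 TPM to 8.64 and 11.7 TPM (-3.52). Of 16 enzymes of the citric acid cycle 2 rose and 11 fell (4 and 8 after that correction), among them the citrate synthase gene Cs (-2.59) and Mdh2 (-1.91). Of 13 glycolytic enzymes 0 rose and 10 fell, with the lowest median of the lists described, -2.52. The pyruvate kinase gene Pkm stood at 429 and 468 TPM with mCherry and 21.7 and 20.4 TPM with Rnaseh1 (-4.35), and Eno1, Tpi1 and Aldoa fell (-4.02, -2.77 and -2.78). After correction for GC content 2 rose and 6 fell of 12 glycolytic enzymes, at a median of -0.47. Glycolytic genes have many processed pseudogenes, which makes their values less certain.

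The small proteins that hold spliceosomal RNAs rose more often than they fell. Of 23 Sm and LSm genes 14 rose and 6 fell (median 0.72), where 20.3% of all genes rose and 46.2% fell. Beside Lsm7, Lsm3 stood at 641 and 551 TPM with mCherry and 2424 and 2352 TPM with Rnaseh1 (2.01), and Snrpd1 and Snrpa1 rose by 1.77 and 1.64. Of 22 SF3 and PRPF splicing factors 3 rose and 15 fell (median -1.07), with Prpf8, the core of the spliceosome, at -2.24, Sf3b4 at -3.62, and Sf3b6 among the 3 that rose (1.76). Of 13 subunits of RNA polymerase II 6 rose and 4 fell: Polr2j, Polr2k and Polr2g rose by 1.79, 1.89 and 1.49, and Polr2c fell from 934 and 926 TPM to 117 and 129.8 TPM (-2.91). Of 32 Mediator subunits 6 rose and 17 fell (18.8% and 53.1%), shares near those of all genes, with Med21 at 1.22 and Med22 at -5.02. With the GC trend removed, 27.6% of all genes rose and 28.8% fell. On that scale 13 rose and 6 fell of the Sm and LSm genes and 3 and 11 of the SF3 and PRPF factors. Of the polymerase subunits 8 rose and 1 fell, and of the Mediator subunits 10 rose and 12 fell.

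Of 29 factors of R-loops and RNA:DNA hybrids 3 rose and 13 fell, or 44.8% against 46.2% of all genes, with a median of -0.43. Rnaseh1 itself, the overexpressed gene, is on this list and among the 3 that rose (2.87), so its rise is no response of the list. Members that fell included the topoisomerase gene Top3b, from 134 and 145 TPM to 13.4 and 10 TPM (-3.48), and Thoc6 and Thoc3 of the THO complex that packages new messages (-3.32 and -2.48). Of 32 elongation factors 7 rose and 17 fell (53.1%), among them Elof1 from 1265 and 1254 TPM to 245 and 246 TPM (-2.36), Nelfa of the pausing complex NELF (-3.62), Ell (-3.95) and Ccnt1, the cyclin of the pause-release kinase (-3.04). Once the GC trend was removed, when 28.8% of all genes fell, 3 rose and 12 fell of the R-loop factors and 7 rose and 11 fell of the elongation factors.

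Of 18 writers, erasers and readers of histone H3 lysine 36 methylation 3 rose and 11 fell, or 61.1% against 46.2% of all genes. After correction for GC content, when 28.8% of all genes fell, 5 rose and 7 fell, and their median went from -1.14 to -0.04. The reader gene Phf1 fell from 111 and 132 TPM to 3.57 and 3.4 TPM (-4.76), Setmar and Mtf2 fell (-2.57 and -1.63), and Psip1, a reader that tethers transcription factors, rose by 1.96. Of 17 genes of the methyltransferases of histone H3 lysine 4 and their shared core 4 rose and 12 fell, and 5 and 7 did after that correction. The core subunit gene Dpy30 stood at 365 and 349.7 TPM with mCherry and 1625 and 1669 TPM with Rnaseh1 (2.20), while Wdr5 of the same core went from 193 and 214 TPM to 33.4 and 25 TPM (-2.77) and Men1 fell by 2.51. Of the 6 demethylases of this lysine Kdm5a, Kdm5c and Kdm1b rose by 1.44, 1.45 and 0.58, Kdm5d fell by 2.32, and Kdm1a and Kdm5b, at 0.28 and -0.32, did not pass. The call of Kdm1b was lost without Rnaseh1 replicate 1 (0.60), Rnaseh1 replicate 2 (0.56) or mCherry replicate 1 (0.32). Kdm5d lies on the Y chromosome and resembles Kdm5c, so its value in oocytes is uncertain.

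Other chromatin genes differed between close relatives. Asf1a, a histone chaperone, stood at 157 and 155 TPM with mCherry and 1189 and 1199 TPM with Rnaseh1 (2.93), and its relative Asf1b went from 355 and 333 TPM to 66.2 and 77.1 TPM (-2.25). Of 20 histone chaperones and linker histones 7 rose and 12 fell, with Npm2 of the oocyte nucleoplasm at -1.99. Of 15 genes that set or protect DNA methylation 3 rose, Dppa3 among them, and 11 fell, including Dnmt3l (-3.23), Uhrf1 (-3.54) and the imprint guardian Zfp57, from 1597 and 1666 TPM to 499.6 and 514 TPM (-1.69). Of 28 ATP-dependent remodelers 3 rose and 19 fell, with Smarcb1 at -2.80, Chd4 at -3.02 and Atrx at -1.58. Of 14 deacetylases and sirtuins 4 rose and 9 fell, and the 4 with the smallest p were the sirtuin genes Sirt7, Sirt6, Sirt4 and Sirt2 (-3.49, -2.20, -1.96 and -2.10). Of 26 polycomb genes 8 rose and 12 fell. The shares that fell were 60%, 73.3%, 67.9%, 64.3% and 46.2% in the order of these lists, against 46.2% of all genes. With the GC trend removed, when 28.8% of all genes fell, 8 rose and 7 fell of 19 chaperones and linker histones, 5 and 7 of the DNA methylation genes, 8 and 10 of the remodelers (median -0.07), 4 and 4 of the deacetylases and sirtuins, and 7 and 11 of the polycomb genes.

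Genes of the egg coat fell together. Of 7 genes of the zona pellucida and egg surface 6 fell and 0 rose, where 46.2% of all genes fell (median -2.42). After correction for GC content, when 28.8% of all genes fell, 5 fell and 1 rose. Zp3 (chromosome 5), a glycoprotein of the coat, stood at 3002 and 3157 TPM with mCherry, 583 and 567 TPM with Rnaseh1 and 3859 and 4054 TPM with Rnaseh1 plus Supt6, a log2 fold change of -2.42 with Rnaseh1 alone (SE 0.06, adjusted p = 6.9e-07). Zp1 went from 1266 and 1381 TPM to 129 and 117 TPM (-3.42) and Zp2 from 1498 and 1662 TPM to 579.5 and 579 TPM (-1.44), so the 3 coat genes fell by unequal amounts. Izumo1r, the egg receptor for the sperm protein IZUMO1, and Astl, whose protease cuts ZP2 after fertilization, fell (-2.99 and -3.26). Cd81, at 1.15 and 2.63 TPM with mCherry, was listed at 0 in both Rnaseh1 libraries. Cd9, which eggs need to fuse with sperm, was at 163 and 154 TPM with mCherry and 168 and 201 TPM with Rnaseh1. It did not pass with TPM as deposited (0.21) and stood at 0.34 without Rnaseh1 replicate 1. After median centring and after correction for GC content Cd9 rose.

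Of the 8 genes of the subcortical maternal complex, which embryos need to pass early cleavage, 7 fell and 1 rose, where 46.2% of all genes fell. After correction for GC content, when 28.8% of all genes fell, 5 fell and 3 rose. Padi6 went from 1694 and 1881 TPM to 239.5 and 222 TPM (-2.95) and Zbed3 (-2.13), Nlrp2 (-1.16), Tle6 (-0.97), Nlrp5 (-0.96), Khdc3 (-0.74) and Ooep (-0.39) fell, while Nlrp4f rose from 1035 and 1105 TPM to 1634 and 1727 TPM (0.65). Tle6 and Khdc3 turned to rises of 0.55 and 0.92 when the GC trend was removed. The call of Khdc3 was lost without Rnaseh1 replicate 2 (-0.54), mCherry replicate 1 (-0.62) or mCherry replicate 2 (-0.86). Among the secreted factors, Fgf8 went from 142 and 154 TPM to 2.65 and 5.57 TPM (-4.93), and Gdf9 fell as well. Bmp15, the partner of Gdf9, was at 1044 and 1310.1 TPM with mCherry and 927 and 991 TPM with Rnaseh1. It did not pass with TPM as deposited (-0.29) and stood at -0.45 without mCherry replicate 1. The receptor gene Kit fell by 0.93, and Bmp6 was at -0.06 and did not pass. After correction for GC content 4 of these 5 genes fell, Bmp15 among them, and Bmp6 rose. Of 14 oocyte transcription factors 2 rose and 9 fell (64.3%), and 4 rose and 7 fell after correction for GC content. Sebox was at -4.97, Pou5f1 at -4.47, Nobox at -1.90 and Obox1 at -0.93 with TPM as deposited. Pou5f1 has pseudogenes and the Obox genes are close copies.

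Of 32 genes of meiotic arrest and maturation 2 rose and 23 fell, or 71.9% against 46.2% of all genes (median -1.33). After correction for GC content, when 28.8% of all genes fell, 3 rose and 16 fell at a median of -0.49. Mos, the kinase that starts the meiotic MAP kinase cascade, stood at 896 and 863 TPM with mCherry, 45.1 and 41.5 TPM with Rnaseh1 and 678 and 672 TPM with Rnaseh1 plus Supt6 (-4.31 with Rnaseh1 alone). The MAP kinase gene Mapk3 and the polo kinase gene Plk1 fell (-4.07 and -4.17), and Pttg1 was among the 2 that rose. Of 15 aurora kinase and spindle checkpoint genes 3 rose and 9 fell, and 5 and 7 did after that correction: Mad2l1, the checkpoint protein MAD2, rose from 396 and 371 TPM to 1628 and 1913 TPM (2.20), and Aurka, Bub1b and Mad1l1 fell (-2.58, -2.01 and -2.65). The other augmin genes moved in both directions. Of the 8 augmin genes Haus3 rose by 0.83, Haus4, Haus5, Haus7 and Haus8 fell (-1.74, -2.10, -2.24 and -2.26), and Haus2 and Haus6, at -0.37 and 0.41, did not pass. Haus4 did not pass after correction for GC content, and Haus2 passed without Rnaseh1 replicate 2 (-0.73). The kinesin gene Kif2a rose by 2.94 and its relative Kif2c fell by 2.71.

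Of 19 proteins that store maternal messages 3 rose and 14 fell, or 73.7% against 46.2% of all genes, and of 22 genes of deadenylation and decapping 3 rose and 13 fell (59.1%). With median centring, when 32.6% of all genes fell, 8 and 10 fell, and after correction for GC content, when 28.8% did, 11 and 13 fell. Cpeb1, which controls the tail length of stored messages, stood at 562 and 615 TPM with mCherry and 103 and 82.2 TPM with Rnaseh1 (-2.66), and Zar1l and Patl2 fell (-2.10 and -2.22). Btg4, which directs the deadenylase to maternal messages during maturation, went from 2655 and 2574 TPM to 1326 and 1379 TPM (-0.95), and Cnot1 and Cnot8 fell (-2.50 and -2.22). Of 32 aminoacyl-tRNA synthetases 2 rose and 24 fell (75%, median -1.27), with the phenylalanine enzyme gene Farsa from 93.5 and 104 TPM to 1.25 and 2.24 TPM (-5.21) and its partner Farsb at -1.59. Of 51 translation initiation factors 11 rose and 30 fell. Of 36 proteasome subunits 10 rose and 21 fell, with Psma2 at 1.56 and Psmd8 at -2.72, and of 30 ubiquitin-conjugating enzymes of the Ube2 family 11 rose and 9 fell. With GC content corrected for, 2 rose and 15 fell of 31 synthetases, 17 and 21 of the initiation factors, 16 and 11 of the proteasome subunits and 15 and 10 of the Ube2 enzymes.

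Of 7 genes of the BCL2 family, which sets the threshold for cell death, 6 fell and 0 rose, where 46.2% of all genes fell (median -2.16), and 3 fell and 1 rose after correction for GC content. Both guardians of survival and promoters of death were among them: Bcl2l1 went from 121 and 128 TPM to 2.08 and 1.51 TPM, Bax from 37.4 and 26.7 TPM to 4.1 and 3.12 TPM (-2.83), and Bik, Bad, Bcl2l10 and Bcl2l11 fell (-3.62, -2.16, -0.81 and -0.74). Mcl1, at 0.6 and 0.82 TPM with mCherry and 2.44 and 0.87 TPM with Rnaseh1, did not pass with TPM as deposited (0.57). It was the gene that rose after correction for GC content, and it also rose after median centring. Without Rnaseh1 replicate 2 it stood at 1.01. The call of Bcl2l11 was lost without Rnaseh1 replicate 1 (-0.74), Rnaseh1 replicate 2 (-0.73) or mCherry replicate 2 (-0.56). Of the genes that fell, Bad, Bcl2l10 and Bcl2l11 did not pass after correction for GC content. Of 29 genes of DNA damage signalling 3 rose and 17 fell, with Trp53 from 39.8 and 41.3 TPM to 2.09 and 2.32 TPM (-3.70) and Trp53bp1 at -3.11. Of 24 genes of endoplasmic reticulum quality control 5 rose and 15 fell, with the translocon gene Sec61a1 at -4.20 and Calr at -3.09. Of 202 solute carriers 17 rose and 124 fell (61.4%), and of 247 Zfp zinc finger genes 41 rose and 103 fell (41.7%). Once corrected for GC content, 27.6% of all genes rose and 28.8% fell. On that scale 3 rose and 11 fell of the DNA damage genes and 6 and 13 of the quality control genes. Of 198 solute carriers 23 rose and 68 fell, and of the Zfp genes 27 rose and 79 fell.

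**Figure D3:**
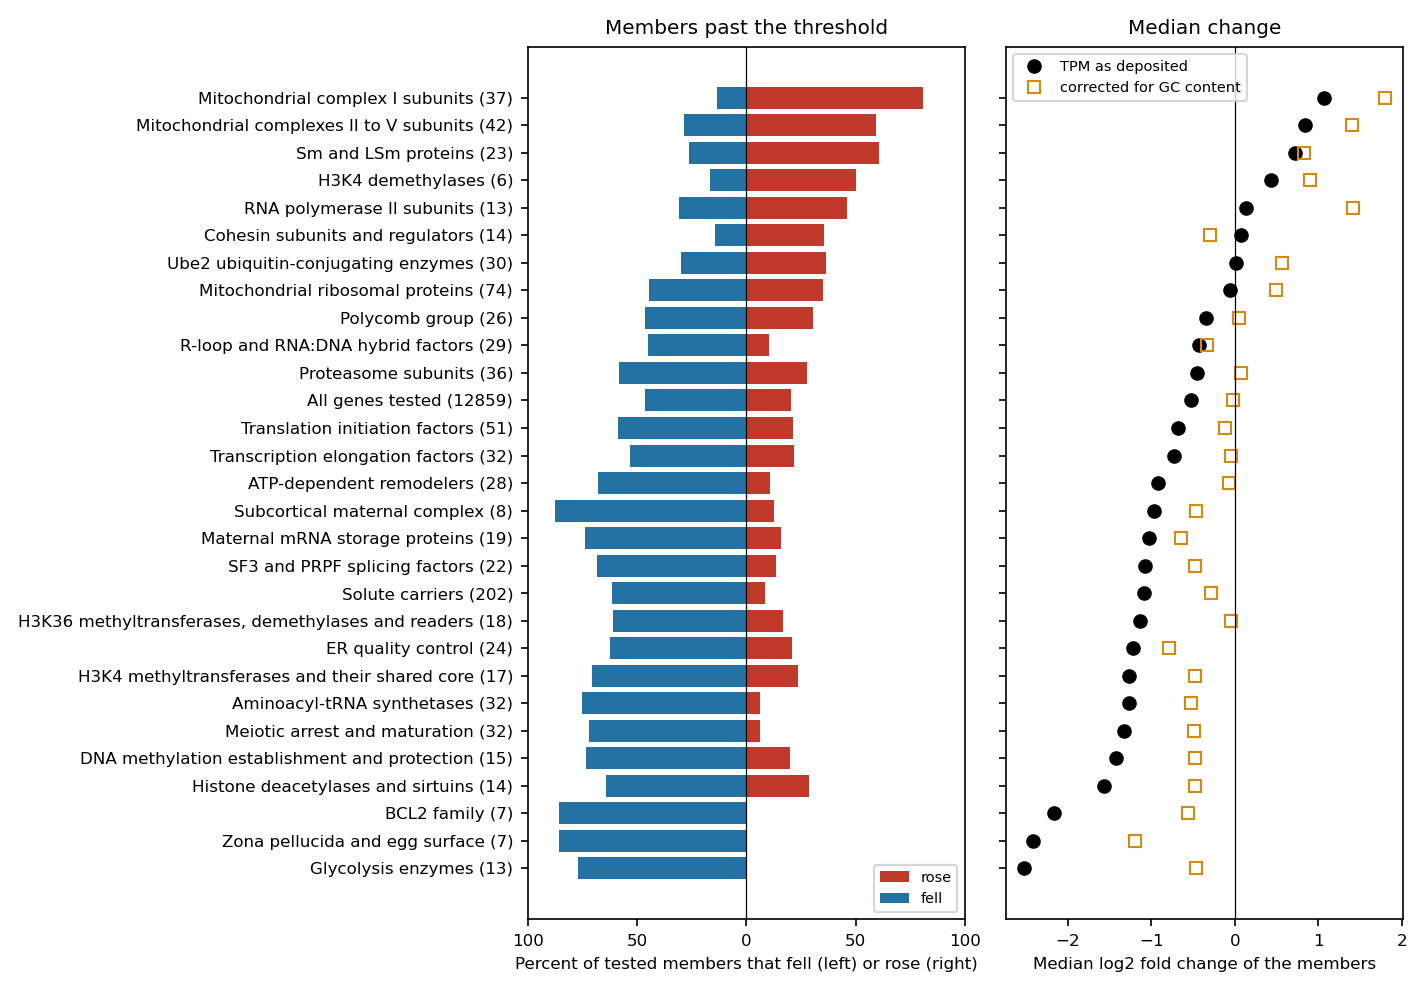
Share of the tested members of 28 gene lists and of all genes that fell (blue, left) or rose (red, right) with Rnaseh1, and the median log2 fold change of the members as deposited (filled) and after correction for GC content (open squares). The number of tested members is in parentheses, with complex I at the top (median 1.07) and glycolysis at the bottom (-2.52).

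Relative to the median of all genes, the lists of complex I, complexes II to V, the mitochondrial ribosome, Sm and LSm proteins and RNA polymerase II lay above it, and glycolysis, the BCL2 family, the egg surface, meiosis and the synthetases below it, in each of the 11 alternative settings that can move a list relative to all genes. The other 4, median centring, robust eBayes, the replicate block and the fit of the 2 groups alone, leave this quantity as it is. The cohesin list reversed: 5 of its 14 genes rose and 2 fell with TPM as deposited, and 1 rose and 4 fell after correction for GC content. The R-loop, proteasome, Mediator, zinc finger, polycomb and spindle checkpoint lists also changed sides relative to all genes in at least 1 setting.

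The change ran with the base composition of the transcripts. Over the 12582 genes with an annotated transcript, the rank correlation of the log2 fold change with transcript GC content was -0.51, given as a description across genes. In the decile of genes with the lowest GC content 41.7% rose and 11.5% fell (median 0.42), and in the decile with the highest 4.77% rose and 76.7% fell (median -1.64). Among 9570 protein-coding genes with at least 50 annotated bases in every part (87.0% of 11003), the rank correlation was -0.55 with the GC content of the 3′ UTR, -0.47 with that of the coding part and -0.05 with that of the 5′ UTR. From the lowest to the highest decile, the median went from 0.25 to -1.93 along the GC content of the 3′ UTR, and it lay between -0.24 and -0.83 along that of the 5′ UTR. The rank correlation with the number of exons was -0.19 and with transcript length -0.14, and the median gene that rose had 5 exons against 9 for one that fell. The relation with length was not steady. In the decile of the shortest transcripts, up to 884 bases, 44.6% rose and 13.7% fell (median 0.65). The median was -0.87 in decile 6 and -0.48 in the longest decile. With the GC trend removed, the rank correlation with length was -0.25, and no setting corrected for length. What sets these relations was not tested.

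**Figure D4:**
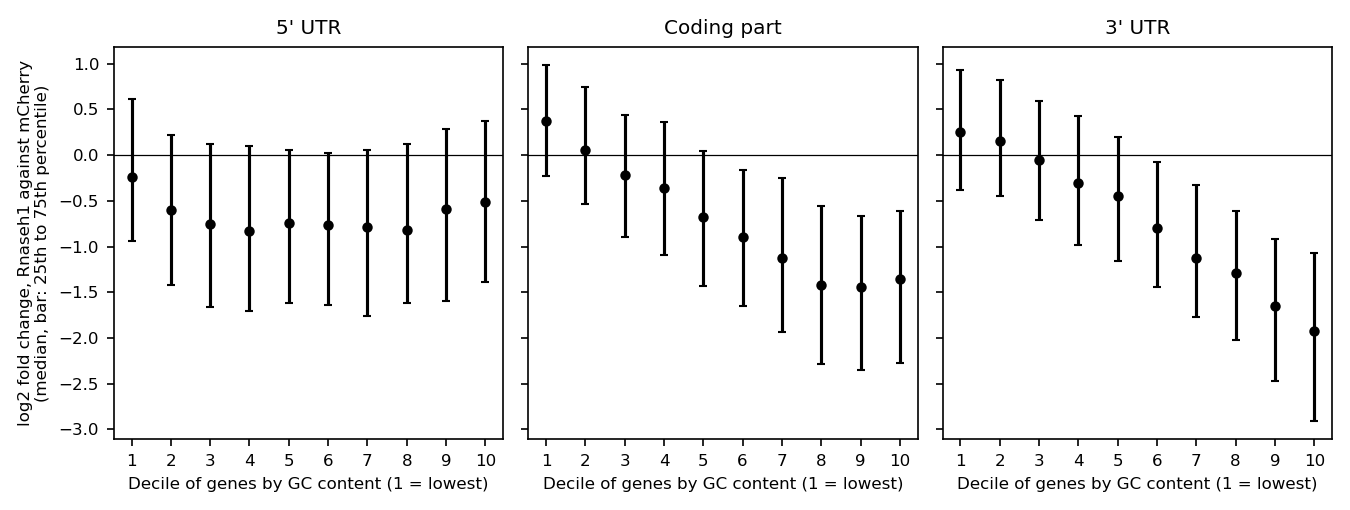
Median log2 fold change with Rnaseh1 (points) and the 25th to 75th percentile (bars) in deciles of 9570 protein-coding genes, ordered by the GC content of the 5′ UTR, the coding part and the 3′ UTR. The points descend along the coding part and the 3′ UTR, to -1.93 in the last decile, and stay between -0.24 and -0.83 along the 5′ UTR.

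Several genes went against the trend with GC content. In the decile with the highest GC content 60 genes rose, and in the decile with the lowest 145 fell. Lsm7, with a transcript GC content of 55.5%, rose by 5.19 once the trend was removed, and Btg4, at 41.3%, was at -1.26. Both were chosen here after their values were seen. The median transcript GC content of the complex I genes was 51.5%, above the 48.9% of all genes, although most of them rose.

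The GC content before the start of transcription, as RefSeq places it, had a rank correlation near 0 with the change. Over 8841 protein-coding genes with an entry in the promoter table of RefSeq (GRCm38.p6; 80.4% of 11003), the correlation with the GC content of the 250 bases before the start was -0.03, and the median GC content was 58.8% in genes that rose and 59.2% in genes that fell. Of 7032 such genes with 1 start in the table, 53.6% of the windows overlapped the gene as GENCODE draws it and 16.3% lay wholly inside it, those of Ppme1 and Rbm38 among them. As examples, the windows of 2 genes that fell and 2 that rose are printed, chosen after their values were seen and because at most 23 bases of each lie inside the GENCODE gene. Zp3 (chr5:135979855-135980104, plus strand) held 43.6% GC and 5 CG dinucleotides, and Cnot3 (chr7:3645019-3645268, plus strand) held 62.4% and 22. Aig1 (chr10:13868958-13869207, minus strand) held 70.4% and 24, and Vapa (chr17:65613556-65613805, minus strand) held 74.8% and 31. CG dinucleotides stand in capitals.
Zp3: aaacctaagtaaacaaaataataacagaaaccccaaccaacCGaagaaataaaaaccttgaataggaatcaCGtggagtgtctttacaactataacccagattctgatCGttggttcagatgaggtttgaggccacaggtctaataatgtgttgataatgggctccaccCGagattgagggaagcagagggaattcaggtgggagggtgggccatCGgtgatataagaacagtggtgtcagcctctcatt
Cnot3: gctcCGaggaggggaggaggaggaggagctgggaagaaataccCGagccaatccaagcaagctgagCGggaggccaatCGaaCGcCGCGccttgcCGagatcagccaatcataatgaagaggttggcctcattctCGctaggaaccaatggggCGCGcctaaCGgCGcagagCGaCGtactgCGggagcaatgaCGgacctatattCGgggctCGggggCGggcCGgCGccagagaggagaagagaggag
Aig1: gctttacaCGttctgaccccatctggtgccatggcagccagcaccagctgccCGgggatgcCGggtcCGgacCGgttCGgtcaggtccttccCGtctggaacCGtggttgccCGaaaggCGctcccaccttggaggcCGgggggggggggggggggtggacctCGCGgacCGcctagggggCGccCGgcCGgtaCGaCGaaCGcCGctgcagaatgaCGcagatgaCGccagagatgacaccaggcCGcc
Vapa: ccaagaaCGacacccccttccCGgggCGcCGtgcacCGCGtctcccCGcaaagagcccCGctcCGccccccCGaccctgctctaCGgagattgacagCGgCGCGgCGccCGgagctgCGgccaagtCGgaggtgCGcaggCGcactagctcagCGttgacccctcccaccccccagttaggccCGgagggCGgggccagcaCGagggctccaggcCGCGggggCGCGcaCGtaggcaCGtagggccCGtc
In these 4 windows the genes that rose held more G and C than those that fell, while over all 9689 tested genes with an entry the median was 57.4% in genes that rose and 59.2% in genes that fell, with 14 and 15 CG dinucleotides.

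The direction of the change differed in count between classes of genes. Of 11003 protein-coding genes 1992 rose and 5557 fell (median -0.65), of 761 long intergenic RNAs 305 rose and 125 fell (median 0.54), and of 427 antisense genes 122 rose and 75 fell (median 0.16). Strand use in the counting is not given in the sources used here, so antisense genes cannot be told apart from their partners. At the edges of detection, 93 genes stood at a TPM of at least 1 in both mCherry libraries and were listed at 0 in both Rnaseh1 libraries, and 53 the reverse, and 66 and 13 of them remain once unnamed gene models are left out. At the limit of 1 TPM in 2 libraries, the 749 genes that just entered had a median highest value of 1.73 TPM, and the 1203 that reached 1 TPM in only 1 library had 1.31 TPM.

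The libraries of NSN and SN oocytes received the same overexpressed genes, in a table that was normalized separately and shares no library with the rescue set. Of the 2457 genes that rose in the rescue set and are in both tables, 45.6% were higher with Rnaseh1 in SN oocytes without overlap of the libraries and 5.66% lower, against 18.2% and 32.3% of all 12232 shared genes. Of the 5700 that fell, 51.6% were lower and 4.02% higher. In NSN oocytes 24.9% of the genes that rose were higher and 12.6% lower, and 26.0% of those that fell were lower and 2.72% higher, against 9.75% and 22.7% of all genes. Haus1 differed by 1.33 in SN and 0.89 in NSN oocytes, Lsm7 by 1.20 and 1.32, Ppme1 by -2.64 and -1.26, Rbm38 by -2.42 and -1.58, and Zp3 by -1.86 and -1.60 (log2 scale). Of these, the libraries did not overlap for Haus1, Ppme1, Rbm38 and Zp3 in SN oocytes and for Lsm7 in NSN oocytes. The 2 libraries of a group could differ widely, so the size of these differences is uncertain. In SN oocytes with mCherry, the mean was 42.4 TPM for Ppme1 (standard deviation 55.3), 194 for Rbm38 (240) and 2787 for Zp3 (2342). Lsm7 in NSN oocytes with Rnaseh1 had a mean of 2101 TPM (standard deviation 1667). Complex I had a median of 0.26 in SN and 0.27 in NSN oocytes, and the egg surface genes -1.52 and -0.94, where all shared genes had -0.23 and -0.28. The rank correlation of the difference with transcript GC content was -0.46 in SN and -0.27 in NSN oocytes. The difference between these sets was not tested.

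**Figure D5:**
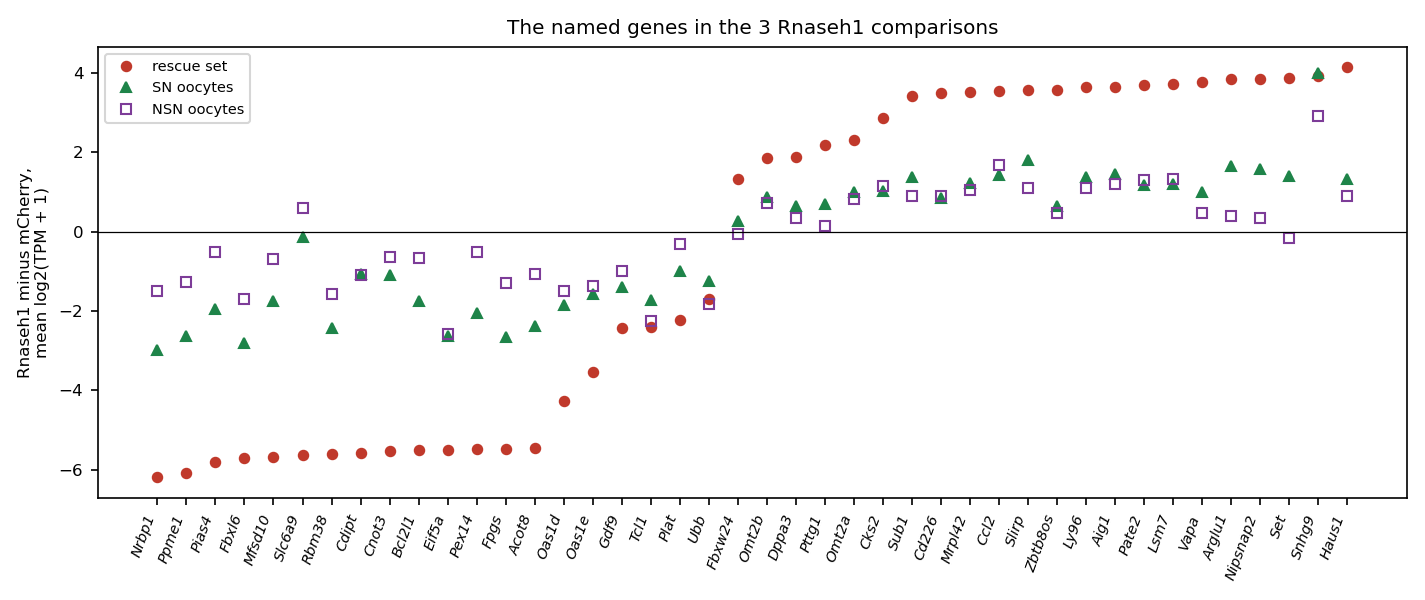
Difference between Rnaseh1 and mCherry (vertical axis, mean log2(TPM + 1)) for the named genes with the largest changes in the rescue set (circles), in SN oocytes (triangles) and in NSN oocytes (open squares), ordered by the rescue value. Haus1 stands at 4.13 in the rescue set and 1.33 in SN oocytes, and Ppme1 at -6.08 and -2.64.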

How the data were processed

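The authors deposited the rescue set as TPM per gene symbol, 1 column per library, rounded in most genes to 2 decimals; how identifiers that share a symbol were merged is not given in the sources used here. Per the submitters' processing notes, the tools were STAR 2.7.0d, RSEM 1.3.3, Trim Galore 0.6.7 and DESeq2, with mm10 as the genome build, and no role is stated for any of them. Per the labels' protocols, cDNA was made with SuperScript II, amplified with KAPA HiFi and built into libraries with a Vazyme kit. Ribosomal proteins with numbered symbols were not analysed here.

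From these values, log2(TPM + 1) was fitted with limma 3.58.1 (lmFit, contrasts.fit, eBayes with a trend) in R 4.3.3, with 1 mean for each of the 3 groups of 2 libraries and 1 spread for all. Genes had to reach 1 TPM in 2 or more of the 6 libraries to be tested, and "rose" and "fell" mean a Benjamini-Hochberg adjusted p under 0.05 over all of them. The median standard error was 0.23. The groups were not equally even. Across genes, the log2 difference between a group's 2 libraries had a standard deviation of 0.57 with Rnaseh1 and 0.42 with mCherry. With Rnaseh1 plus Supt6 it was 0.35, so a single spread can understate that of the Rnaseh1 group. A fit of the Rnaseh1 and mCherry groups alone gave 2423 genes that rose and 5573 that fell. The script was tested on simulated data. Gene lists are described by counts and medians only. GC content, length and gene class come from GENCODE M21 (GRCm38), matched by symbol, for the longest basic transcript of the gene, a coding one where there is any. The GC trend was removed from each library with a lowess curve of span 0.3, and median centring used genes whose mean TPM was 10 or more. Effects in NSN and SN oocytes are differences of mean log2(TPM + 1) within their own table.

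Genes named were Rnaseh1, Supt6, Haus1, Lsm7, Ppme1, Rbm38 and Zp3. To these came up to 15 per direction with the largest fold change and a mean TPM of at least 10 in the higher group, up to 8 per direction with the largest TPM difference, and the 6 most abundant within 0.1 of 0. Up to 4 members with the smallest p of each list, or all members of a list of at most 10, were added. Unnamed gene models were left out, and 2 genes that the rule would name are not reported here. The members and lists were chosen with earlier results of these data known.

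Other settings were a pseudocount of 0.1 or 5, a stricter filter (TPM of 5) or none, other scalings, a minimum log2 fold change of 1, a fit of the 2 groups alone, robust eBayes, a block for the replicate number, and each library left out in turn.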

Additional observations from a re-analysis of the deposited data

Results flagged for a closer look

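For 7 of the genes named in the text, every library with Rnaseh1 lay on one side of every mCherry library in the rescue set and on the other side in NSN or SN oocytes. Cnot1, the scaffold of the CCR4-NOT deadenylase, fell in the rescue set (-2.50 on the log2(TPM + 1) scale) and was 1.41 higher with Rnaseh1 in SN oocytes. Ooep of the subcortical maternal complex fell in the rescue set (-0.39) and was 0.33 higher in NSN oocytes. The other genes did not pass in the rescue set. Bmp15 was at -0.29 there, at 0.28 in NSN and at 0.37 in SN oocytes. Cd9 was at 0.21 in the rescue set, -1.16 in NSN and -0.52 in SN oocytes, and Kdm1a was at 0.28, -0.16 and -0.54 in the same order. Mcl1 was at 0.57 in the rescue set and -0.22 in SN oocytes, and Med28 at 0.05 and -0.36. Of 2457 shared genes that rose in the rescue set, 310 (12.6%) were lower without overlap in NSN oocytes and 139 (5.66%) in SN oocytes. Of the 5700 that fell, 155 (2.72%) and 229 (4.02%) were higher. Of all 12232 shared genes, 22.7% and 32.3% were lower and 9.75% and 18.2% higher, in the same order. With 2 libraries per group, libraries can lie apart without any change. None of these differences between sets was tested.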

How the results depend on the processing

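The counts of 2608 genes that rose and 5945 that fell moved most with the scaling. Median centring gave 3973 that rose, and quantile normalization gave 4223 that rose and 3958 that fell. Removal of the trend with GC gave 3628 that fell, and a minimum log2 fold change of 1 gave 1614 that rose. All other settings kept both counts within 1.5 times. With 1 library left out in turn, where the lone library of a group is assumed to vary like the others, 2206 to 2583 genes rose and 4979 to 5895 fell.

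With a replicate block, 2602 rose and 5915 fell. Libraries with the same number did not deviate together across genes (r = 1.8e-05, 0.038 and -0.00048 for the 3 pairs of groups). These values cannot tell if such libraries share an animal, pool or day, because a shared source need not leave a common shift.

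Of the genes named, these changed sign and passed before or after. Median centring put Rbbp7, Sap18 and Ube2d3 at 0.48, 0.48 and 0.44, Bmp6 at 0.43 and Ooep at 0.10. Quantile normalization put Bmp6 at 0.50 and Med28 at -0.18. Removal of the trend with GC put Supt6 at 0.93, Bmp6 at 1.59, Khdc3 at 0.92 and Tle6 at 0.55. Others changed sign without passing in either setting: Supt6, Bmp15, Haus2 and Kdm5b were at 0.33, 0.20, 0.12 and 0.16 with median centring, and Supt6, Haus2, Kdm5b, Elobl and Sod1 at 0.52, 0.28, 0.33, -0.11 and -0.34 with quantile normalization. With 1 library left out, Rbbp7, Sap18, Sod1, Ube2d3 and Bmp6 crossed 0 without passing. The calls of Bcl2l11 and Khdc3 were lost after median centring (-0.25 for each) and quantile normalization (-0.06 and -0.10), and without a filter those of both and Kdm1b were lost. The cause was not tested. TPM holds no depth, so counting error at low levels is unknown, and groups of 2 libraries limit the estimate of the spread.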
